A study of Arabidopsis thaliana with 36 samples.

Results

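A group of 73 probe sets on Arabidopsis ATH1 arrays rose in wild type leaves after antimycin A, changed little with hydrogen peroxide, and rose in rao2 and anac017-1 by at least 0.5 of the wild type amount. They were chosen by 4 values. The mean log2 change with antimycin A against water in wild type was at least 3, with all 3 antimycin A arrays above all 3 water arrays, and the change with hydrogen peroxide in wild type lay between -0.5 and 0.5. The antimycin A change in rao2 and that in anac017-1 were each at least 0.5 of the wild type change. Of 22746 probe sets, 466 met the first condition, 95 of these also met the second and 74 met all. One of the 74 (GH3.3) was left out by name. Of the 73 members, 38 had 1 gene in the gene table and 35 had no entry, so these 35 were analysed but are given by probe set only. The rule used the antimycin A arrays and water arrays of wild type, rao2 and anac017-1 and the hydrogen peroxide arrays of wild type. Member values from those arrays are given as a description. Calls for hydrogen peroxide in rao2 and anac017-1 were made against water arrays of the rule, and nothing is read from their counts. The anac017-2 arrays were not used by the rule, and the changes tested below are differences of their means. The standard errors and p-values of these tests are not independent of the rule. They rest on a spread shared by all arrays, among them those the rule used. With the anac017-2 arrays alone, limma gave 5 members, not 7, an adjusted p under 0.05 for antimycin A against water. Over all probe sets the share was 12.9%, not 15.3%.

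The samples were green leaf tissue of Columbia seedlings grown for 14 days on plates, sprayed and collected 3 h later, with 3 arrays for each of 4 genotypes and 3 sprays, 36 arrays in all. The genotypes were anac017-2 (described as a gain-of-function mutant of ANAC017), anac017-1 (a T-DNA insertion knock-out line of ANAC017), rao2 (a mutant from chemical mutagenesis found in a genetic screen) and wild type (Col:LUC, a Columbia line). The sprays were 50 µM antimycin A, 20 mM hydrogen peroxide and deionised water. The Col:LUC label is given for wild type alone, and it is not said whether the mutants share that background beyond the ecotype, so a difference from wild type cannot be told apart from a difference of background. Each mutant is represented by 1 line. Nothing says whether the 3 arrays of a group came from separate batches of seedlings, and the p-values cover only the spread between these samples. ANAC017 itself had no named probe set, and the genotype labels could not be checked on it.

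Antimycin A blocks electron transfer in complex III of the mitochondrial electron transport chain and is used in plants to trigger mitochondrial retrograde signalling, in which nuclear genes respond to the state of the organelle. ANAC017 is a NAC domain transcription factor held in membranes of the endoplasmic reticulum, and release of its soluble part is a known route by which alternative oxidase and the genes of the mitochondrial dysfunction stimulon are switched on. Hydrogen peroxide is a reactive oxygen species that acts as a stress signal in its own right.

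Levels are log2 of the deposited intensity, and a change is a difference of group means on that scale. Values no higher than the 25th percentile of their own array, which was 2.45 to 2.56, were counted as not above background. Replicate arrays correlated across probe sets at 0.983 to 0.997, the leaf marker RCA lay between 14.5 and 14.7 on all 36 arrays, and it was the only measured one of 15 listed leaf markers. One library stood apart: rao2 antimycin A replicate 1 averaged 8.75 over 13 measured stimulon genes, against 5.84 and 6.64 in rao2 antimycin A replicates 2 and 3. Over the 73 members that array averaged 7.45, between 7.30 in replicate 2 and 7.98 in replicate 3, and 71 of the 73 still met the rule without it. Among the anac017-2 arrays, hydrogen peroxide replicate 2 had a higher member mean, 4.03 against 3.16 and 3.26 in replicates 1 and 3. RNA of bulk leaf tissue was measured, so more cells with a transcript and more transcript per cell cannot be told apart.

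**Figure D1:**
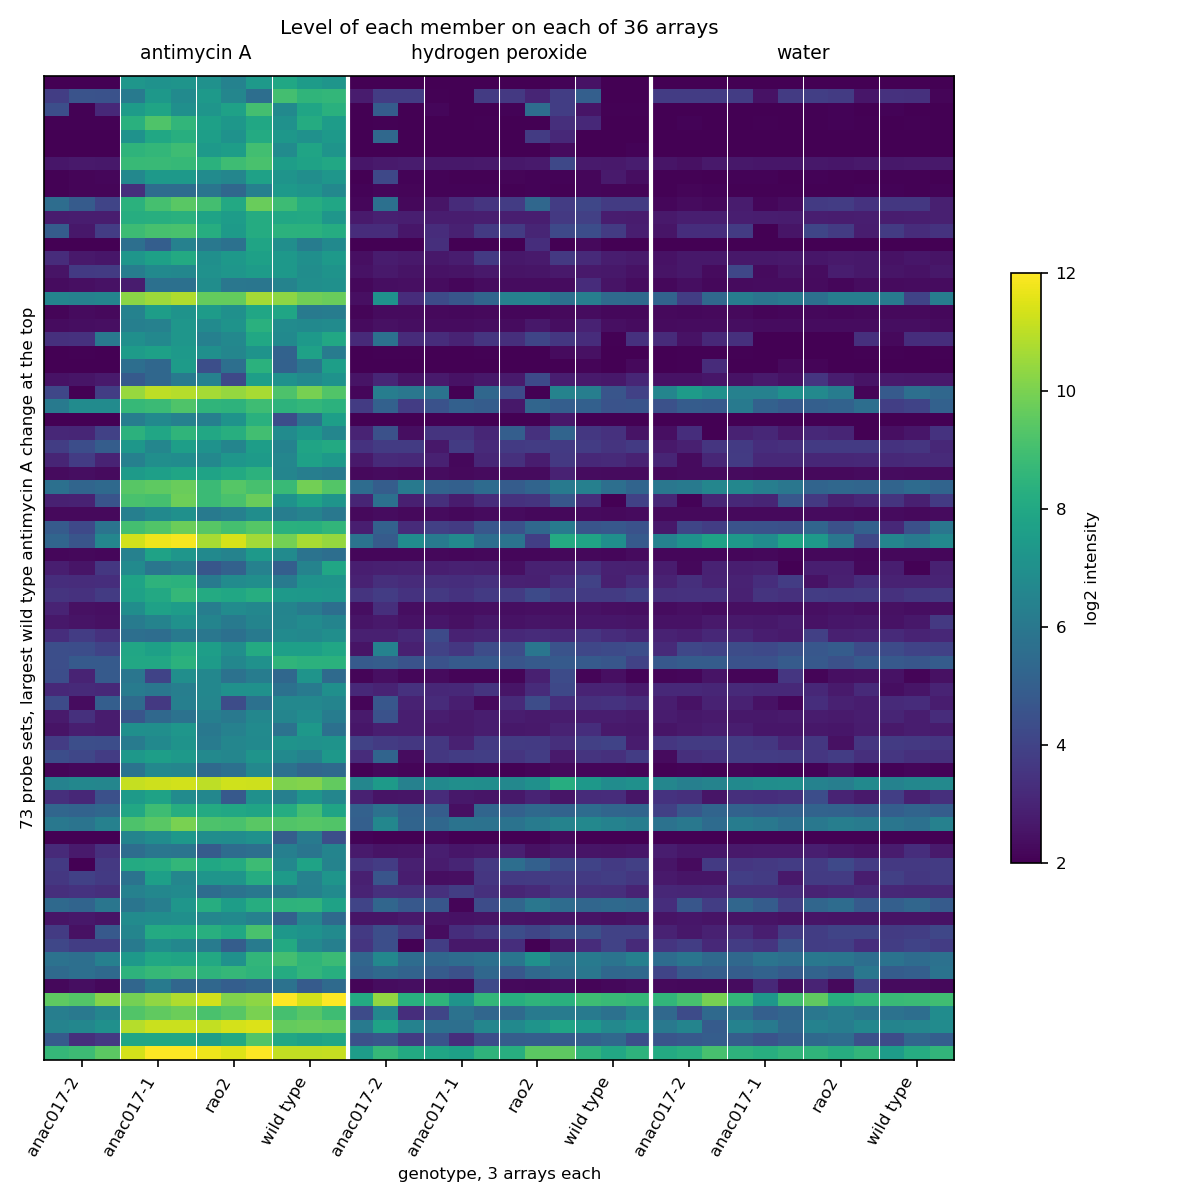
Log2 intensity (colour) of each of the 73 members (rows, sorted by their wild type antimycin A change) on each of 36 arrays (columns, 3 per genotype and spray). The antimycin A columns of anac017-1, rao2 and wild type are bright, while those of anac017-2 look like the hydrogen peroxide and water columns.

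Under antimycin A the members stood at a median level of 3.31 in anac017-2, 7.37 in anac017-1 and 7.28 in rao2, against 7.12 in wild type. In water the medians were 2.74, 2.87 and 3.02 in these mutants, against 2.99 in wild type. With antimycin A the members were thus high in the knock-out line, in rao2 and in wild type, and low in anac017-2. The median antimycin A change was 4.19 in anac017-1 (range 1.77 to 6.71) and 3.99 in rao2 (1.79 to 6.15), against 3.84 in wild type (3.00 to 5.76). As a share of the wild type change, the median kept was 1.04 in anac017-1 (0.530 to 1.69) and 1.02 in rao2 (0.543 to 1.61). The change was at least as large as in wild type for 41 members in anac017-1 and 40 in rao2, with 32 at least as large in both and 24 smaller in both. Since a share of at least 0.5 was a condition, these shares describe the choice and support nothing. For comparison, the 393 other probe sets that met the antimycin A condition in wild type kept a median share of 0.865 in anac017-1 and 0.884 in rao2. Their median wild type change was 4.30, and no limit was set on their shares, so the medians are not like for like.

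No anac017-2 array entered the rule, and there the response was small. The median antimycin A change of the 73 members in anac017-2 was 0.26 (range -3.92 to 2.60), beside 0.0010 over all probe sets, and 62 of the 73 changes were above 0. The median share of the wild type change was 0.0654 (-0.930 to 0.522), under 0.1 for 42 members, under 0 for 11 and at least 0.5 for 1. On all 3 anac017-2 antimycin A arrays each of the 73 members lay below all 3 wild type antimycin A arrays, which held for 16.9% of all probe sets, and the difference of means had a median of -3.54 (-6.39 to -1.92). High wild type values were a condition of the choice, so this difference from wild type was not tested. The other 393 probe sets kept a median share of 0.160 in anac017-2, and the 141 induced by both sprays and kept in rao2 and anac017-1 kept 0.178. A low share was therefore found for antimycin A-induced probe sets at large in anac017-2, and whether that of the members is lower was not tested.

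**Figure D2:**
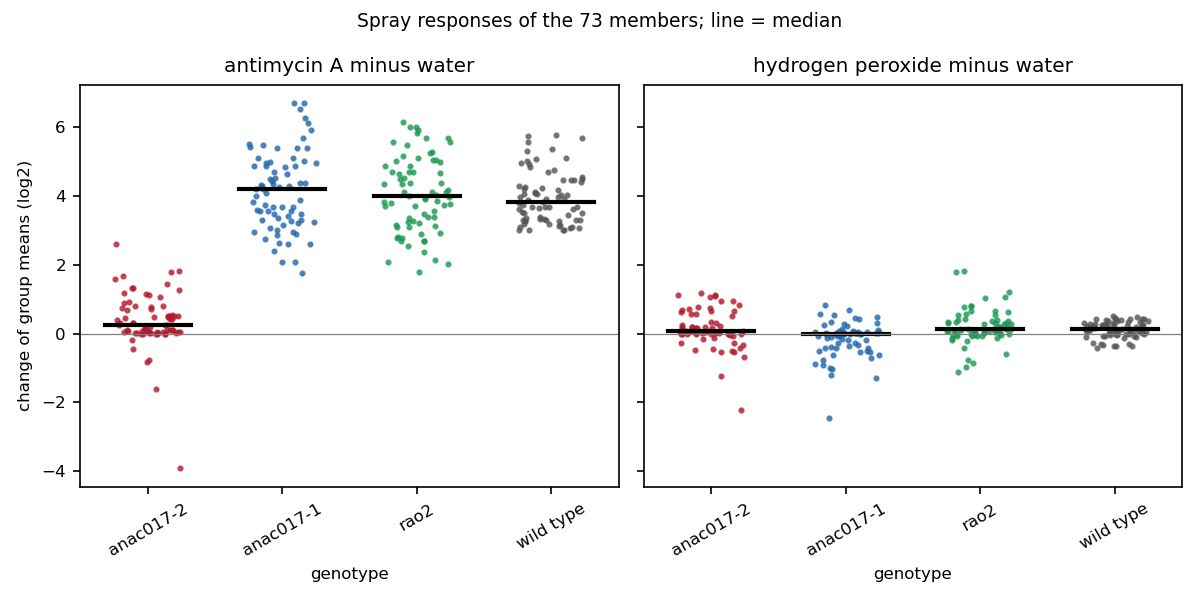
Change in log2 intensity with antimycin A (left) and hydrogen peroxide (right) against water for each of the 73 members (points) in 4 genotypes, with the median as a line. With antimycin A the medians are 0.26 in anac017-2, 4.19 in anac017-1, 3.99 in rao2 and 3.84 in wild type.

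In anac017-2, limma called 6 members higher and 1 lower with antimycin A than with water at an adjusted p under 0.05. Over all probe sets 6.9% were called higher and 8.39% lower, 15.3% in either direction, so the members' share lay near the background and is no result about them. By the separation of arrays the picture was another: all 3 antimycin A arrays lay above all 3 water arrays for 20 members, 27.4% of them and 17% of all probe sets, and below them for 3, 4.11% of them and 19.2% of all probe sets. Whether these shares differ was not tested. In wild type 44% of all probe sets were called with antimycin A. At an unadjusted p under 0.05 in limma the count in anac017-2 was 18 of 73 members and 6000 of all 22746 probe sets. That count is no result about the members either. For 20 members neither antimycin A nor water gave a level above background in anac017-2 on at least 2 arrays each, and 16 were not above background on any of its 9 arrays. For these a change cannot be measured, while 30 members were above background on all 9 arrays.

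**Figure D3:**
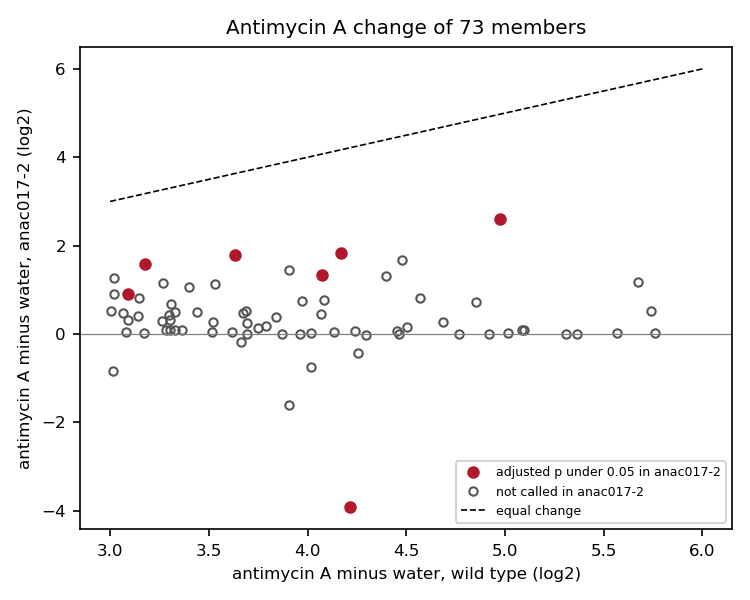
Antimycin A change in anac017-2 against that in wild type for the 73 members (log2, group means of 3 arrays), filled where limma called the change in anac017-2. Every point lies below the dashed line of equal change, and across the members the changes of both genotypes had a Pearson correlation of -0.05.

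The called members were AT2G18210, scpl31 and 5 probe sets without a gene name, named here because they were called. Probe set 263948_at read 5.57, 4.86 and 4.03 with antimycin A in anac017-2, 8.39, 9.04 and 9.46 in anac017-1 and 9.01, 8.02 and 9.71 in rao2, against 8.86, 8.24 and 7.93 in wild type. Its anac017-2 change was 2.60 ± 0.62 (SE from limma, with 3 arrays per group; adjusted p = 0.00522 in limma), but its water values in anac017-2 were all below background, so it rose there by at least 2.33. Probe set 255654_at read 6.09, 6.83 and 6.84 with antimycin A in anac017-2, 8.71, 8.80 and 9.24 in anac017-1 and 8.53, 8.46 and 8.91 in rao2, against 8.47, 8.61 and 8.42 in wild type. It rose in anac017-2 by 1.83 ± 0.47 (adjusted p = 0.009 in limma), where its water values were 4.49, 4.93 and 4.83. All 3 antimycin A arrays of anac017-2 lay above its water arrays and below the antimycin A arrays of the other genotypes for both probe sets. Smaller rises were called for 249337_at (1.34 ± 0.35, adjusted p = 0.0092 in limma) and 256763_at (0.91 ± 0.28, adjusted p = 0.0274). The exception in sign was 253181_at, at 4.14, 1.34 and 3.81 with antimycin A and 6.56, 7.47 and 7.02 with water in anac017-2. It fell there by 3.92 on the log2 scale (SE 1.21, adjusted p = 0.0278 in limma), while it rose by 4.19 in anac017-1, 5.59 in rao2 and 4.22 in wild type. Of its anac017-2 antimycin A arrays, replicate 2 was not above background.

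The number of calls moved with single arrays, and so did the share of all probe sets called. The number was 3 without anac017-2 antimycin A replicate 3 (10.7% of all probe sets) and 2 without anac017-2 water replicate 1 (11.3%). It was 4 without anac017-2 water replicate 3 (9.81%). It was 12 without anac017-2 hydrogen peroxide replicate 2 (16.8%), an array that enters only through the shared spread. Probe set 255654_at stayed called in each of 45 alternatives and 263948_at in all but the fit on the arrays of anac017-2 alone (adjusted p = 0.119). The call of 253181_at was lost without anac017-2 antimycin A replicate 2 (-3.04, adjusted p = 0.153 in limma) or any 1 of the 3 water arrays (adjusted p 0.0521 to 0.0883), and in the fit on the anac017-2 arrays alone (-3.92, adjusted p = 0.0752). That of 249337_at was lost without antimycin A replicate 3 (1.06, adjusted p = 0.0715) or water replicate 1 (1.17, adjusted p = 0.0514), and on log2(value + 16) (0.61, adjusted p = 0.121). That of 256763_at was lost without any 1 antimycin A array (adjusted p 0.0552 to 0.0938) or water replicate 1 (0.63, adjusted p = 0.191). With array weights 22 members were called in anac017-2 (28.3% of all probe sets), among them AT5G38310, AT4G39830, AT1G68620, AT2G38790 and AT2G39400, which were higher, and AT1G79710, which was lower.

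Receptor-like kinases, which sit at the cell surface and start signalling chains, gave 3 members. AT5G59680, a kinase with a leucine-rich repeat ectodomain, read 3.81, 4.54 and 4.51 with antimycin A in anac017-2, 6.10, 7.34 and 6.80 in anac017-1 and 7.36, 6.59 and 5.60 in rao2, against 9.02, 8.55 and 8.61 in wild type. With hydrogen peroxide AT5G59680 read 2.77, 3.78 and 3.77 in anac017-2, 2.04, 1.93 and 3.73 in anac017-1 and 3.65, 3.02 and 3.82 in rao2, against 5.04, 1.94 and 1.97 in wild type. In water AT5G59680 read 3.76, 3.76 and 3.78 in anac017-2, 3.77, 2.48 and 3.75 in anac017-1 and 3.85, 3.73 and 2.62 in rao2, against 3.44, 3.37 and 2.15 in wild type. The wild type antimycin A arrays were the highest, rao2 and anac017-1 stood between, and the anac017-2 arrays stood closest to their water level. AT5G59680 had the largest wild type change of the named members, 5.74, against which rao2 reached 3.12 and anac017-1 3.42, the smallest share in rao2. In anac017-2 its change was 0.52 ± 0.64 (adjusted p = 0.783 in limma). AT1G61420, of the S-locus lectin kinase family, read 4.36, 4.13 and 3.77 with antimycin A in anac017-2, 7.33, 7.59 and 7.40 in anac017-1 and 6.71, 6.60 and 7.16 in rao2, against 6.76, 6.44 and 7.34 in wild type. With hydrogen peroxide AT1G61420 read 3.27, 5.21 and 2.34 in anac017-2, 3.62, 3.77 and 3.87 in anac017-1 and 3.55, 3.78 and 2.73 in rao2, against 3.52, 3.38 and 3.78 in wild type. In water AT1G61420 read 2.28, 3.36 and 3.46 in anac017-2, 3.78, 3.76 and 3.76 in anac017-1 and 3.58, 3.79 and 3.36 in rao2, against 3.58, 3.40 and 3.37 in wild type. Its 3 anac017-2 antimycin A arrays lay above all its anac017-2 water arrays, but the change of 1.06 ± 0.42 was not called (adjusted p = 0.0977 in limma). It was called without anac017-2 hydrogen peroxide replicate 2 (adjusted p = 0.0112) or 3 (adjusted p = 0.039). AT5G41680, a protein kinase, was not above background on any anac017-2 antimycin A or water array, and rose by at least 4.66 in anac017-1 and 4.38 in rao2, against at least 3.55 in wild type.

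The transcription factor members were AT1G43000, a PLATZ zinc-binding factor, and AT3G12910, which encodes a NAC domain protein. AT1G43000 read 2.06, 2.15 and 2.14 with antimycin A in anac017-2, 3.36, 5.55 and 5.54 in anac017-1 and 5.89, 5.36 and 6.36 in rao2, against 7.39, 7.21 and 6.68 in wild type. With hydrogen peroxide AT1G43000 read 2.09, 2.16 and 2.13 in anac017-2, 2.09, 2.09 and 2.11 in anac017-1 and 2.06, 2.09 and 2.07 in rao2, against 2.16, 2.13 and 2.12 in wild type. In water AT1G43000 read 2.07, 2.12 and 2.10 in anac017-2, 2.06, 2.07 and 2.07 in anac017-1 and 2.07, 2.07 and 2.09 in rao2, against 2.08, 2.07 and 2.09 in wild type. None of its values was above background apart from the antimycin A arrays of anac017-1, rao2 and wild type. In anac017-1 replicate 1 was lower than replicates 2 and 3, and all anac017-1 and rao2 arrays lay below all wild type arrays. It rose by at least 2.35 in anac017-1 and 3.37 in rao2, against at least 4.58 in wild type. AT3G12910 went the other way among the lines, with a rise of at least 5.18 in anac017-1 and 5.61 in rao2, against at least 3.82 in wild type. In anac017-2 neither factor was above background with antimycin A or water.

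Among members tied to defence and protein turnover, AT5G37490 (PUB21) encodes a U-box ubiquitin ligase, AT3G48450 a protein of the RIN4-like family and AT1G10340 an ankyrin repeat protein. AT5G37490 read 2.34, 2.40 and 2.49 with antimycin A in anac017-2, 2.76, 5.67 and 5.70 in anac017-1 and 6.89, 5.96 and 5.91 in rao2, against 6.48, 6.95 and 7.02 in wild type. With hydrogen peroxide AT5G37490 read 2.21, 2.37 and 2.40 in anac017-2, 2.32, 2.19 and 2.35 in anac017-1 and 2.34, 2.33 and 2.34 in rao2, against 3.26, 2.52 and 2.34 in wild type. In water AT5G37490 read 2.21, 2.35 and 2.21 in anac017-2, 2.29, 2.33 and 2.34 in anac017-1 and 2.28, 2.17 and 2.34 in rao2, against 2.28, 2.33 and 2.33 in wild type. All 9 anac017-2 arrays were below background. The anac017-1 antimycin A arrays did not reach the others, with replicate 1 at 2.76, and the share of the wild type change in anac017-1, 0.530, rests on water values below background in both lines. Without anac017-1 antimycin A replicate 3 the number of members was 70, the fewest of any alternative that left out 1 array. AT3G48450 changed by 0.53 ± 0.25 in anac017-2 (adjusted p = 0.175 in limma), by 2.90 in anac017-1 and by 2.69 in rao2, against 3.69 in wild type. AT1G10340 had a change of 0.09 ± 0.46 in anac017-2 and was not called by limma. It changed by 4.64 in anac017-1 and by 4.39 in rao2, against 3.28 in wild type.

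Sugar transferases attach sugars to small molecules or proteins, and 4 members belonged to such families. UGT71B6, a glucosyltransferase that conjugates abscisic acid, read 2.05, 2.15 and 2.18 with antimycin A in anac017-2, 6.65, 7.39 and 7.43 in anac017-1 and 6.84, 6.58 and 7.74 in rao2, against 7.19, 6.94 and 7.24 in wild type. With hydrogen peroxide UGT71B6 read 2.02, 4.17 and 2.11 in anac017-2, 2.09, 2.08 and 2.05 in anac017-1 and 2.12, 2.10 and 2.09 in rao2, against 2.16, 2.71 and 2.38 in wild type. In water UGT71B6 read 2.05, 2.04 and 2.03 in anac017-2, 2.10, 2.08 and 2.01 in anac017-1 and 2.09, 2.06 and 2.01 in rao2, against 2.04, 2.05 and 2.01 in wild type. The antimycin A values of anac017-1, rao2 and wild type overlapped, and in anac017-2 the single array above background was hydrogen peroxide replicate 2. It rose by at least 4.69 in anac017-1 and 4.56 in rao2, against at least 4.61 in wild type. AT2G37980, of the O-fucosyltransferase family, read 3.26, 2.69 and 2.60 with antimycin A in anac017-2, 7.27, 7.69 and 8.06 in anac017-1 and 6.96, 7.32 and 7.67 in rao2, against 7.32, 6.997 and 7.36 in wild type. With hydrogen peroxide AT2G37980 read 2.42, 2.78 and 2.69 in anac017-2, 2.66, 2.80 and 3.72 in anac017-1 and 2.63, 2.72 and 3.65 in rao2, against 3.20, 2.79 and 2.73 in wild type. In water AT2G37980 read 2.50, 2.63 and 2.65 in anac017-2, 2.64, 2.63 and 2.68 in anac017-1 and 2.62, 2.66 and 2.65 in rao2, against 2.48, 2.61 and 2.53 in wild type. Its antimycin A arrays again overlapped between anac017-1, rao2 and wild type, and in anac017-2 the change was 0.26 ± 0.25 (adjusted p = 0.661 in limma). AT5G57500, of a galactosyltransferase family, read 4.38, 4.81 and 4.82 with antimycin A in anac017-2, 7.99, 8.01 and 8.40 in anac017-1 and 7.49, 6.63 and 7.06 in rao2, against 8.53, 8.42 and 8.41 in wild type. With hydrogen peroxide AT5G57500 read 4.82, 4.95 and 4.57 in anac017-2, 4.52, 4.82 and 4.84 in anac017-1 and 4.62, 4.81 and 4.83 in rao2, against 4.83, 4.69 and 3.97 in wild type. In water AT5G57500 read 4.74, 4.93 and 4.92 in anac017-2, 4.51, 4.54 and 4.87 in anac017-1 and 4.78, 4.49 and 4.82 in rao2, against 4.81, 4.66 and 4.89 in wild type. It was above background everywhere, its rao2 antimycin A arrays lay below those of anac017-1 and wild type, and its anac017-2 change was -0.19 ± 0.19 (adjusted p = 0.687 in limma). AT4G19460, a glycosyltransferase, changed by 0.50 ± 0.31 in anac017-2 (adjusted p = 0.34), by 3.21 in anac017-1 and by 3.28 in rao2, against 3.44 in wild type.

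Alpha/beta hydrolases, a family of enzymes that split esters and related bonds, gave 3 members. AT1G68620 read 4.39, 2.06 and 3.15 with antimycin A in anac017-2, 7.49, 7.83 and 6.97 in anac017-1 and 7.20, 7.71 and 9.03 in rao2, against 6.75, 7.88 and 8.36 in wild type. With hydrogen peroxide AT1G68620 read 2.03, 4.90 and 1.99 in anac017-2, 2.17, 1.97 and 1.98 in anac017-1 and 2.11, 5.58 and 3.81 in rao2, against 2.55, 2.08 and 2.08 in wild type. In water AT1G68620 read 2.04, 2.03 and 1.997 in anac017-2, 2.02, 2.01 and 1.98 in anac017-1 and 2.04, 2.11 and 1.99 in rao2, against 2.09, 1.95 and 1.93 in wild type. It was below background on all 12 water arrays, and above it with hydrogen peroxide on 2 rao2 arrays, on anac017-2 replicate 2 and barely on wild type replicate 1. It rose with antimycin A by at least 4.96 in anac017-1 and 5.48 in rao2, against at least 5.15 in wild type. Its anac017-2 values spread from 2.06 to 4.39, and the change of 1.18 ± 0.69 was not called (adjusted p = 0.312 in limma). AT4G31020 read 3.19, 2.70 and 3.38 with antimycin A in anac017-2, 5.58, 5.93 and 5.84 in anac017-1 and 4.89, 5.54 and 5.66 in rao2, against 6.32, 5.87 and 6.50 in wild type. With hydrogen peroxide AT4G31020 read 2.73, 2.54 and 2.57 in anac017-2, 2.86, 2.59 and 2.68 in anac017-1 and 2.89, 2.46 and 2.66 in rao2, against 2.57, 2.52 and 2.59 in wild type. In water AT4G31020 read 2.79, 2.62 and 2.60 in anac017-2, 2.67, 2.73 and 2.72 in anac017-1 and 2.84, 2.66 and 2.54 in rao2, against 2.77, 3.31 and 2.71 in wild type. Its anac017-2 antimycin A arrays overlapped its water arrays, with a change of 0.42 ± 0.19 (adjusted p = 0.136 in limma). AT2G39400, the member with the smallest wild type change, read 8.67, 8.86 and 9.48 with antimycin A in anac017-2, 11.35, 12.05 and 12.29 in anac017-1 and 11.74, 11.51 and 12.29 in rao2, against 11.08, 11.08 and 11.13 in wild type. With hydrogen peroxide AT2G39400 read 7.52, 8.66 and 8.07 in anac017-2, 7.87, 7.69 and 8.52 in anac017-1 and 8.29, 9.49 and 9.53 in rao2, against 8.52, 8.01 and 8.47 in wild type. In water AT2G39400 read 8.10, 8.30 and 9.07 in anac017-2, 8.45, 8.25 and 8.59 in anac017-1 and 8.55, 8.25 and 8.56 in rao2, against 7.52, 8.19 and 8.57 in wild type. The anac017-1 and rao2 antimycin A arrays all lay above those of wild type, and the anac017-2 change of 0.51 ± 0.35 was not called (adjusted p = 0.415 in limma).

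Proteases were represented by AT1G44130, an aspartyl protease, scpl31, a serine carboxypeptidase-like enzyme, and AT3G57460, a metallopeptidase-like protein. AT1G44130 read 2.78, 2.81 and 2.78 with antimycin A in anac017-2, 8.22, 8.28 and 8.35 in anac017-1 and 7.81, 7.53 and 8.13 in rao2, against 8.003, 8.02 and 7.24 in wild type. With hydrogen peroxide AT1G44130 read 2.73, 2.86 and 2.83 in anac017-2, 2.80, 2.81 and 2.86 in anac017-1 and 2.84, 2.82 and 3.64 in rao2, against 3.88, 2.81 and 2.78 in wild type. In water AT1G44130 read 2.69, 2.84 and 2.85 in anac017-2, 2.84, 2.81 and 2.76 in anac017-1 and 2.83, 2.79 and 2.82 in rao2, against 2.79, 2.83 and 2.87 in wild type. Antimycin A values of over 7 stood beside anac017-2 values that did not leave the water range, and all of these were above background. The anac017-2 change was -0.005 ± 0.22 and was not called by limma. The carboxypeptidase-like scpl31 read 4.38, 2.99 and 4.81 with antimycin A in anac017-2, 5.92, 4.01 and 6.96 in anac017-1 and 6.63, 5.76 and 6.21 in rao2, against 5.35, 7.17 and 5.44 in wild type. With hydrogen peroxide scpl31 read 2.15, 2.43 and 2.19 in anac017-2, 2.29, 2.12 and 2.15 in anac017-1 and 2.14, 2.90 and 4.29 in rao2, against 2.15, 2.42 and 2.12 in wild type. In water scpl31 read 2.12, 2.17 and 2.54 in anac017-2, 2.15, 2.14 and 3.57 in anac017-1 and 2.15, 2.40 and 2.45 in rao2, against 2.49, 2.13 and 2.44 in wild type. All 3 anac017-2 antimycin A arrays lay above its anac017-2 water arrays, and the rise of 1.79 ± 0.58 was called (adjusted p = 0.0373 in limma). That call was lost without anac017-2 antimycin A replicate 1 (1.63, adjusted p = 0.119) or 3 (1.41, adjusted p = 0.182), or without any 1 of the 3 anac017-2 water arrays (adjusted p 0.0673 to 0.102). It was also lost on log2(value + 16) (0.70, adjusted p = 0.229 in limma) and with low values raised to the background limit (1.57, adjusted p = 0.0538). AT3G57460 changed by 0.46 ± 0.30 in anac017-2 (adjusted p = 0.381), by 3.37 in anac017-1 and by 3.99 in rao2, against 4.07 in wild type.

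The transport and metal-binding members were AT1G79710, of a folate and biopterin transporter family, AT4G23030, a MATE efflux carrier, and AT5G52740, a heavy-metal-binding protein. AT1G79710 read 5.71, 5.27 and 5.43 with antimycin A in anac017-2, 9.42, 9.53 and 9.72 in anac017-1 and 8.83, 9.37 and 9.10 in rao2, against 8.76, 9.87 and 9.33 in wild type. With hydrogen peroxide AT1G79710 read 5.53, 4.97 and 6.11 in anac017-2, 5.20, 5.09 and 5.51 in anac017-1 and 4.91, 5.21 and 6.08 in rao2, against 6.36, 5.64 and 5.21 in wild type. In water AT1G79710 read 5.97, 6.11 and 6.60 in anac017-2, 6.65, 6.26 and 5.97 in anac017-1 and 5.22, 5.34 and 5.27 in rao2, against 5.20, 5.50 and 5.21 in wild type. In anac017-2 every antimycin A array lay below every water array, and the change of -0.76 ± 0.31 was not called (adjusted p = 0.104 in limma). The water arrays of anac017-2 and anac017-1 all lay above those of wild type for this gene. AT4G23030 was not above background in anac017-2 with antimycin A or water, and rose by at least 4.23 in anac017-1 and 3.95 in rao2, against at least 3.74 in wild type. AT5G52740 changed by 0.26 ± 0.31 in anac017-2 (adjusted p = 0.758), by 2.60 in anac017-1 and by 3.57 in rao2, against 3.52 in wild type.

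Mitochondrial and redox functions were held by AT5G38710, a proline dehydrogenase of the mitochondrion, nad5, a complex I subunit encoded in the mitochondrial genome, and AT5G44990, of the glutathione transferase family. AT5G38710 read 4.39, 4.37 and 4.01 with antimycin A in anac017-2, 7.91, 7.69 and 8.21 in anac017-1 and 7.62, 6.93 and 8.12 in rao2, against 7.66, 7.64 and 7.92 in wild type, and its water values were 3.20, 4.14 and 4.01 in anac017-2, 4.32, 4.22 and 4.45 in anac017-1 and 4.70, 4.90 and 4.27 in rao2, against 4.27, 4.01 and 3.92 in wild type. Its anac017-2 antimycin A and water arrays overlapped, with a change of 0.47 ± 0.58 (adjusted p = 0.788 in limma), against changes of 3.61 in anac017-1, 2.93 in rao2 and 3.67 in wild type. The probe set listed for nad5 is of a kind that can match more than 1 transcript, so its value may not belong to nad5 alone. It read 3.16, 3.18 and 3.17 with antimycin A in anac017-2, 6.16, 5.95 and 6.28 in anac017-1 and 6.64, 7.07 and 7.04 in rao2, against 5.73, 6.09 and 6.96 in wild type, and its anac017-2 antimycin A arrays were as low as its anac017-2 water arrays, at 3.16, 3.17 and 3.07. AT5G44990 was not above background in anac017-2 with either antimycin A or water, and rose by at least 4.18 in anac017-1 and 4.93 in rao2, against at least 4.29 in wild type.

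Cell wall and apoplast members were AT4G39830, a cupredoxin related to ascorbate oxidase, EXLA3, an expansin-like protein, and AT4G23610, a hydroxyproline-rich glycoprotein of the late embryogenesis abundant family. AT4G39830 read 6.27, 6.04 and 6.55 with antimycin A in anac017-2, 9.30, 9.55 and 9.75 in anac017-1 and 9.11, 9.39 and 9.996 in rao2, against 9.04, 9.41 and 8.88 in wild type. With hydrogen peroxide AT4G39830 read 4.29, 6.65 and 3.33 in anac017-2, 4.09, 5.76 and 5.29 in anac017-1 and 5.47, 6.10 and 6.17 in rao2, against 6.06, 5.71 and 6.43 in wild type. In water AT4G39830 read 5.37, 4.30 and 5.40 in anac017-2, 5.67, 5.04 and 5.27 in anac017-1 and 5.95, 6.23 and 5.92 in rao2, against 5.77, 5.62 and 6.87 in wild type. All 3 anac017-2 antimycin A arrays lay above its anac017-2 water arrays, although the change of 1.26 ± 0.53 was not called (adjusted p = 0.117 in limma). Without anac017-2 hydrogen peroxide replicate 2, which read 6.65 against 4.29 and 3.33, it was called (adjusted p = 0.0229). EXLA3 read 3.35, 3.11 and 4.45 with antimycin A in anac017-2, 7.46, 7.77 and 6.84 in anac017-1 and 6.65, 4.80 and 7.02 in rao2, against 6.32, 7.20 and 6.60 in wild type. With hydrogen peroxide EXLA3 read 2.92, 2.54 and 2.58 in anac017-2, 3.21, 2.63 and 2.58 in anac017-1 and 2.66, 2.98 and 2.55 in rao2, against 3.22, 3.26 and 2.55 in wild type. In water EXLA3 read 3.48, 3.35 and 2.56 in anac017-2, 3.35, 3.31 and 3.39 in anac017-1 and 4.35, 2.99 and 2.67 in rao2, against 3.86, 2.92 and 3.36 in wild type. Its anac017-2 antimycin A and water arrays overlapped, with a change of 0.51 ± 0.46 (adjusted p = 0.621 in limma). AT4G23610 changed by 0.81 ± 0.43 in anac017-2 (adjusted p = 0.251), by 4.30 in anac017-1 and by 4.49 in rao2, against 3.15 in wild type.

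**Figure D4:**
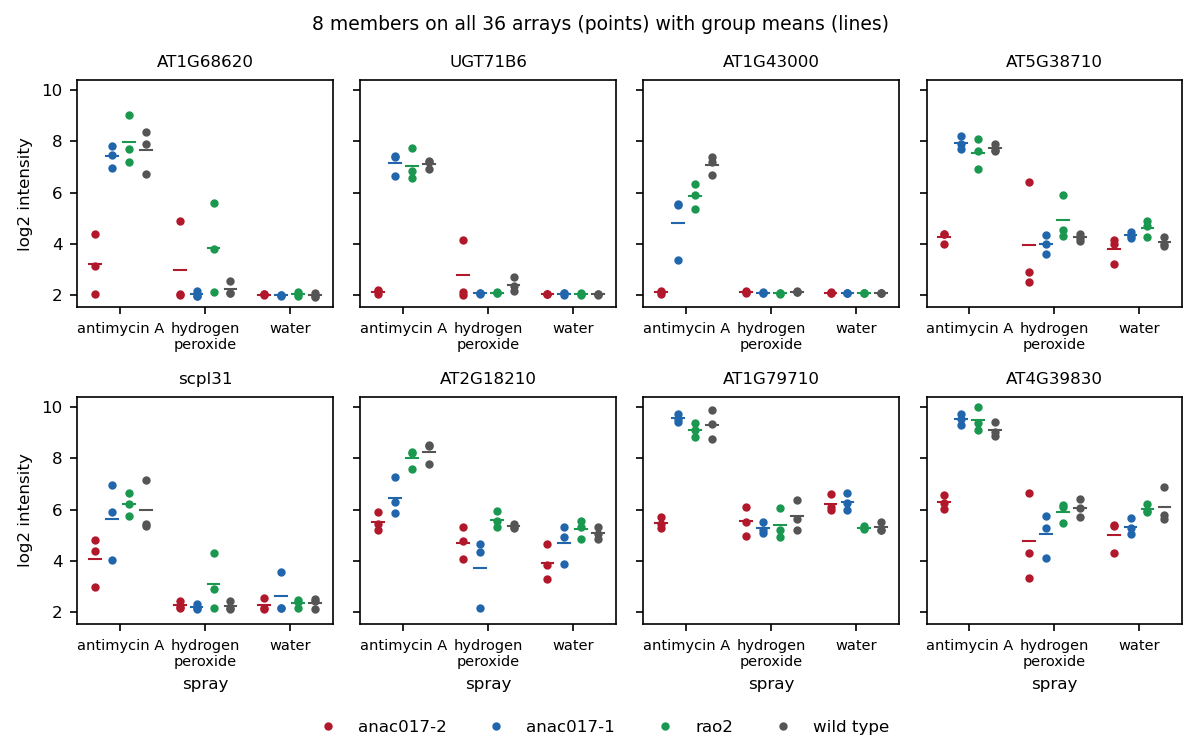
Log2 intensity of 8 members on every array (points, 3 per genotype and spray) with group means (lines), by spray and, within a spray, by genotype. With antimycin A the anac017-2 points lie below those of wild type in all 8 panels, and scpl31 and AT2G18210 show the called rises in anac017-2.

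Another 11 named members are given no role here. AT2G18210 kept just under 0.5 of the wild type change in anac017-2, and it read 5.43, 5.22 and 5.91 with antimycin A in anac017-2, 5.87, 6.28 and 7.25 in anac017-1 and 8.22, 7.58 and 8.23 in rao2, against 8.46, 8.50 and 7.76 in wild type. With hydrogen peroxide AT2G18210 read 4.06, 5.30 and 4.76 in anac017-2, 4.66, 2.15 and 4.32 in anac017-1 and 5.31, 5.96 and 5.55 in rao2, against 5.31, 5.43 and 5.29 in wild type. In water AT2G18210 read 3.30, 4.67 and 3.82 in anac017-2, 5.30, 4.91 and 3.89 in anac017-1 and 5.30, 5.53 and 4.85 in rao2, against 5.03, 5.30 and 4.87 in wild type. Its anac017-2 antimycin A arrays lay above its anac017-2 water arrays and below all wild type antimycin A arrays. The rise of 1.59 ± 0.49 in anac017-2 was called (adjusted p = 0.0263 in limma), with the anac017-2 water level 1.13 below wild type. The call was lost without anac017-2 antimycin A replicate 1 (1.63, adjusted p = 0.0565) or 3 (1.39, adjusted p = 0.110), or water replicate 1 (1.27, adjusted p = 0.137) or 3 (1.53, adjusted p = 0.0828). It was also lost with array weights (1.13, adjusted p = 0.0543 in limma) and in the fit on the anac017-2 arrays alone (1.59, adjusted p = 0.0515). AT2G38790 read 3.40, 3.41 and 6.03 with antimycin A in anac017-2, 6.98, 6.68 and 7.25 in anac017-1 and 6.34, 6.68 and 7.97 in rao2, against 6.73, 7.36 and 7.99 in wild type. With hydrogen peroxide AT2G38790 read 3.19, 5.73 and 3.24 in anac017-2, 3.28, 2.99 and 3.53 in anac017-1 and 3.33, 4.08 and 3.61 in rao2, against 3.27, 2.05 and 3.41 in wild type. In water AT2G38790 read 3.23, 2.48 and 3.16 in anac017-2, 3.39, 1.95 and 1.98 in anac017-1 and 2.003, 1.99 and 3.39 in rao2, against 2.27, 3.32 and 3.31 in wild type. In anac017-2 the antimycin A mean rested on replicate 3, and the change of 1.32 ± 0.66 was not called (adjusted p = 0.208 in limma); without that array it was 0.44.

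AT2G01300, AT4G19370, AT1G15010 and AT1G20520 were not above background on any water array. AT2G01300 read 2.06, 2.05 and 2.07 with antimycin A in anac017-2, 8.35, 9.26 and 8.59 in anac017-1 and 7.67, 7.29 and 7.97 in rao2, against 7.05, 8.17 and 7.54 in wild type. With hydrogen peroxide AT2G01300 read 1.96, 2.06 and 2.02 in anac017-2, 1.80, 1.72 and 2.07 in anac017-1 and 1.81, 1.90 and 3.36 in rao2, against 3.17, 1.89 and 1.999 in wild type. In water AT2G01300 read 1.97, 2.08 and 2.04 in anac017-2, 1.99, 2.06 and 2.02 in anac017-1 and 2.06, 2.08 and 2.06 in rao2, against 1.96, 2.06 and 2.04 in wild type. All anac017-1 antimycin A arrays lay above all those of rao2 and wild type, and the rise was at least 6.26 in anac017-1 and 5.15 in rao2, against at least 5.07 in wild type. AT4G19370 read 1.85, 1.90 and 1.86 with antimycin A in anac017-2, 7.08, 7.97 and 8.27 in anac017-1 and 7.60, 7.08 and 8.13 in rao2, against 7.30, 7.04 and 7.40 in wild type. With hydrogen peroxide AT4G19370 read 1.86, 5.39 and 1.85 in anac017-2, 1.88, 1.86 and 1.86 in anac017-1 and 1.88, 3.75 and 3.15 in rao2, against 1.87, 1.85 and 1.85 in wild type. In water AT4G19370 read 1.85, 1.86 and 1.87 in anac017-2, 1.86, 1.85 and 1.84 in anac017-1 and 1.97, 1.86 and 1.87 in rao2, against 1.87, 1.92 and 1.87 in wild type. The antimycin A values of anac017-1, rao2 and wild type overlapped, and with hydrogen peroxide the gene was above background on 1 anac017-2 and 2 rao2 arrays. AT1G15010 read 1.97, 2.02 and 1.95 with antimycin A in anac017-2, 8.49, 8.62 and 8.89 in anac017-1 and 7.37, 7.56 and 8.96 in rao2, against 6.81, 7.83 and 7.19 in wild type. With hydrogen peroxide AT1G15010 read 1.97, 1.99 and 2.03 in anac017-2, 1.99, 1.99 and 2.001 in anac017-1 and 1.97, 1.93 and 2.28 in rao2, against 1.98, 1.96 and 2.09 in wild type. In water AT1G15010 read 1.96, 2.000 and 1.997 in anac017-2, 1.98, 1.98 and 1.95 in anac017-1 and 1.98, 1.94 and 1.96 in rao2, against 1.99, 1.94 and 1.95 in wild type. All anac017-1 antimycin A arrays were above all those of wild type, with rises of at least 6.20 in anac017-1 and 5.47 in rao2, against at least 4.76 in wild type. AT1G20520 read 2.005, 2.04 and 2.03 with antimycin A in anac017-2, 7.48, 7.69 and 7.41 in anac017-1 and 6.97, 6.59 and 7.14 in rao2, against 5.16, 7.70 and 6.18 in wild type. With hydrogen peroxide AT1G20520 read 2.005, 2.08 and 2.06 in anac017-2, 2.02, 2.01 and 2.05 in anac017-1 and 2.02, 2.01 and 2.28 in rao2, against 2.45, 2.03 and 2.03 in wild type. In water AT1G20520 read 2.01, 2.05 and 2.06 in anac017-2, 2.04, 2.02 and 2.01 in anac017-1 and 2.03, 2.01 and 2.06 in rao2, against 2.04, 2.03 and 2.07 in wild type. Its wild type antimycin A arrays spread from 5.16 to 7.70, more widely than those of anac017-1 and rao2.

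AT5G38310 read 2.51, 3.69 and 3.74 with antimycin A in anac017-2, 6.26, 6.75 and 6.63 in anac017-1 and 7.07, 7.26 and 7.50 in rao2, against 7.34, 6.92 and 7.15 in wild type. With hydrogen peroxide AT5G38310 read 2.50, 2.70 and 2.52 in anac017-2, 2.48, 2.53 and 2.67 in anac017-1 and 2.51, 2.57 and 2.66 in rao2, against 2.67, 2.65 and 2.50 in wild type. In water AT5G38310 read 2.53, 2.66 and 2.30 in anac017-2, 4.13, 2.30 and 2.54 in anac017-1 and 2.32, 2.78 and 2.65 in rao2, against 2.56, 2.49 and 2.66 in wild type. In anac017-2 replicates 2 and 3 of antimycin A stood above all water arrays and replicate 1 did not, and the change of 0.81 ± 0.31 was not called (adjusted p = 0.0744 in limma). Without replicate 1 it was 1.22 and called (adjusted p = 0.00867), and it was also called without anac017-1 water replicate 1 (adjusted p = 0.00938) or 2 (adjusted p = 0.0499) and with the filter on low values (adjusted p = 0.0438). AT4G27654 read 2.85, 2.58 and 3.64 with antimycin A in anac017-2, 6.80, 5.93 and 6.29 in anac017-1 and 4.68, 5.11 and 6.41 in rao2, against 4.98, 6.46 and 7.90 in wild type. With hydrogen peroxide AT4G27654 read 2.83, 2.89 and 2.91 in anac017-2, 2.86, 2.91 and 2.90 in anac017-1 and 2.43, 2.93 and 2.93 in rao2, against 3.37, 2.92 and 2.90 in wild type. In water AT4G27654 read 2.74, 2.21 and 2.97 in anac017-2, 2.86, 2.88 and 2.03 in anac017-1 and 2.83, 2.85 and 2.23 in rao2, against 2.83, 2.07 and 2.93 in wild type. The wild type antimycin A arrays spread from 4.98 to 7.90, and the anac017-2 change of 0.38 ± 0.48 was not called (adjusted p = 0.795 in limma). The other members with no role were not called in anac017-2. AT5G40180 changed by 0.18 in anac017-2, 4.86 in anac017-1 and 3.74 in rao2, against 3.79 in wild type. For AT1G68330 the changes were 0.67, 3.29 and 2.89 in these mutants, against 3.31 in wild type, and for AT2G47720 they were 0.30, 3.29 and 2.68, against 3.26.

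By role, then, the median antimycin A change in anac017-2 was 0.52 for the receptor-like kinases, 0.03 for the transcription factors, 0.15 for the defence and ubiquitin ligase members and 0.17 for the sugar transferases. It was 0.51 for the hydrolases, 0.46 for the proteases, 0.0016 for the transport and metal-binding members, 0.07 for the mitochondrial and redox members and 0.81 for the cell wall and apoplast members. Each role holds 2 to 4 genes, and scpl31 was the only called member among the 27 genes with a role. The 35 probe sets without a gene name had a median of 0.14 in anac017-2 (-3.92 to 2.60), 4.30 in anac017-1 (2.08 to 6.54) and 4.13 in rao2 (1.79 to 6.15), against 3.75 in wild type (3.02 to 5.76).

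With hydrogen peroxide against water in anac017-2, limma called 0 of 73 members (9.01% of all probe sets). In anac017-2, 7 members and 4967 of all 22746 probe sets had an unadjusted p under 0.05 in limma. The median hydrogen peroxide change of the members there was 0.06 (-2.22 to 1.17). The median hydrogen peroxide change was 0.0005 in anac017-1 (-2.44 to 0.83) and 0.13 in rao2 (-1.13 to 1.83). The water arrays of anac017-1 and rao2 entered the rule, so the hydrogen peroxide changes of these lines are a description. In the fit across all probe sets, 0 of 73 members passed an adjusted p under 0.05 in limma in anac017-1 (1.42% of all probe sets). At an unadjusted p under 0.05 there were 3 members and 2758 of all 22746 probe sets. In rao2, 2 of 73 passed an adjusted p under 0.05 (5.12% of all probe sets higher, 6.3% lower and 11.4% in either direction). Nothing is read from these counts. The called members in rao2 were 252060_at and 247493_at. Probe set 252060_at read 4.996, 3.41 and 5.22 with hydrogen peroxide and 3.16, 3.03 and 1.97 with water in rao2, where the arrays did not overlap. Probe set 247493_at read 6.65, 7.02 and 8.24 with hydrogen peroxide and 6.45, 6.29 and 6.74 with water in rao2, where they did.

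Of the named members, AT1G68620 had a mean hydrogen peroxide change of at least 1.46 in rao2, where its water values were below background. On 1 of its 3 rao2 hydrogen peroxide arrays it was not above background either. AT2G38790 had a hydrogen peroxide change of 1.21 in rao2, and limma called neither gene there. AT4G19370 was not called for hydrogen peroxide in anac017-2 (adjusted p = 0.212 in limma), where replicate 2 read 5.39 and all other hydrogen peroxide and water arrays were below background. Without anac017-2 hydrogen peroxide replicate 1, 3 members were called for hydrogen peroxide in anac017-2, all higher (9.94% of all probe sets called). Without replicate 2, 1 was called, lower (4.19% of all probe sets called), and the median change was -0.0040. When antimycin A was set against hydrogen peroxide in anac017-2, limma called 1 member, 255654_at, higher by 2.37 (adjusted p = 0.00261 in limma). Of all probe sets 2.18% were called higher, 3.04% lower and 5.22% in either direction. At an unadjusted p under 0.05 there were 13 members and 3920 of all 22746 probe sets. The number of members called was 8 without anac017-2 hydrogen peroxide replicate 2 (4.96% of all probe sets). It was 2 without anac017-2 antimycin A replicate 1 or 2, anac017-1 antimycin A replicate 2 or 3, or anac017-1 water replicate 1 (3.12% to 5.29% of all probe sets).

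In water the median member of each mutant stood close to wild type, whose water arrays were used by the rule. The median difference from wild type was -0.05 in anac017-2, -0.01 in anac017-1 and -0.0020 in rao2, beside -0.0079, -0.03 and -0.01 over all probe sets. In anac017-2 the difference was above 0 for 20 of 73 members and for 9915 of all 22746 probe sets. Differences of at least 1 in size were found for 6 members in anac017-2 (348 of all probe sets), for 2 in anac017-1 (570) and for 0 in rao2 (181). Whether these shares differ was not tested. The 6 in anac017-2 were 253181_at (1.75 higher) and AT2G18210 (-1.13), AT4G39830 (-1.06), AT4G23610 (-1.05), 263948_at (-1.15) and 254249_at (-1.14). In anac017-1 they were 253181_at (1.33) and 255654_at (1.02). On all 3 water arrays 21 members were not above background in anac017-2, 20 in anac017-1 and 21 in rao2, against 22 in wild type. With antimycin A the same held for 19 members in anac017-2 and for 0 in anac017-1, rao2 and wild type.

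The members were set beside 11 lists of genes from stress pathways, of which 10 had measured genes. The mitochondrial dysfunction stimulon, the best-known set of ANAC017 targets, held 0 of the members. The rule left little room for overlap, so this 0 supports nothing. The stimulon had a median antimycin A change of 0.177 in anac017-1 and a median hydrogen peroxide change of 1.87 in wild type. Of its 13 measured genes limma called 4 higher with antimycin A in anac017-2 and 12 in wild type (17.2% of all probe sets higher and 26.7% lower in wild type), with median changes of 1.20 in anac017-2 and 4.61 in wild type. The 3 with the lowest p in anac017-2 were AT2G32020 (4.26 ± 0.71, adjusted p = 0.000231 in limma), AT5G43450 (1.57 ± 0.39, adjusted p = 0.00686) and NDB4, an alternative NAD(P)H dehydrogenase (1.04 ± 0.28, adjusted p = 0.0112). Stimulon genes were already high in anac017-2 water arrays, with array means of 7.99 to 8.02, against 5.69 to 6.13 in wild type water arrays. The member means were 3.25 to 3.45 in anac017-2 water arrays, against 3.44 to 3.57 in wild type. The rule used the wild type water arrays, and a large rise over water favours members low in water. On all 3 water arrays 21 members were not above background in anac017-2 and 22 in wild type. Nothing is read from this contrast with the stimulon.

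**Figure D5:**
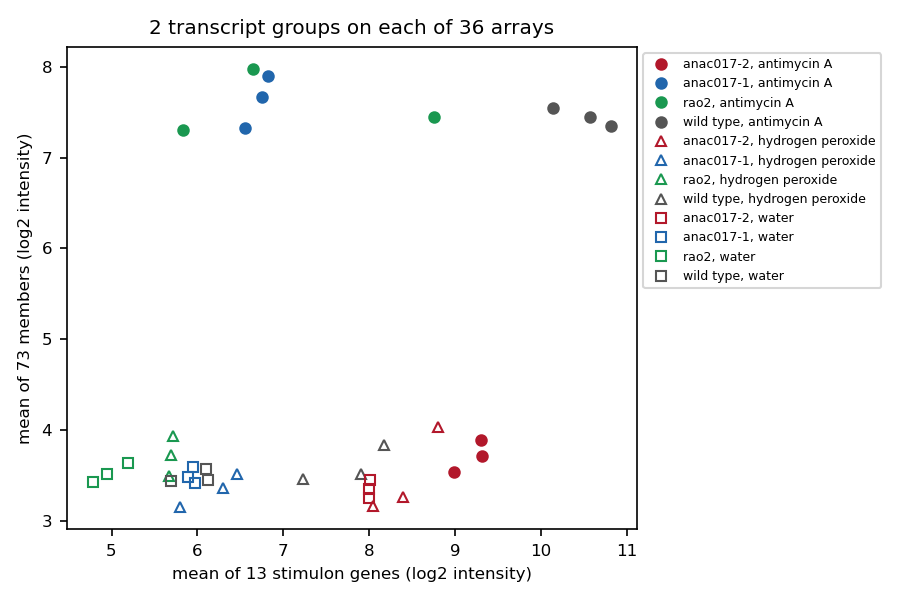
Mean log2 intensity of the 73 members against that of 13 stimulon genes on each of 36 arrays, coloured by genotype and shaped by spray. The anac017-1 and 2 of the 3 rao2 antimycin A arrays are high for members and low for stimulon genes, and the anac017-2 antimycin A arrays are low for members and at 8.99 to 9.32 for stimulon genes. The members were chosen to rise with antimycin A in anac017-1, rao2 and wild type.

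Across antimycin A arrays both groups of transcripts parted. A rise of the members in anac017-1, rao2 and wild type was a condition of the choice, so the parting in those lines supports nothing. The stimulon mean was 8.99 to 9.32 in anac017-2, 6.56 to 6.83 in anac017-1 and 5.84 to 8.75 in rao2, against 10.1 to 10.8 in wild type. The member mean was 3.53 to 3.89 in anac017-2, 7.32 to 7.91 in anac017-1 and 7.30 to 7.98 in rao2, against 7.34 to 7.55 in wild type. The control signal at the 3' minus that at the 5' end of 3 transcripts, a measure of RNA integrity, averaged 3.16 ± 0.03 in anac017-2, 3.48 ± 0.20 in anac017-1 and 3.38 ± 0.17 in rao2 with antimycin A, against 3.10 ± 0.07 in wild type (SD, n = 3). Its part in the member levels was not tested. Of 15 listed root markers 5 were measured, and the log2 of their summed intensity with antimycin A was 7.85 to 8.51 in anac017-2, 6.36 to 7.28 in anac017-1 and 6.35 to 8.14 in rao2, against 5.78 to 7.57 in wild type. In water it was 7.38 to 8.12 in anac017-2, 7.90 to 8.29 in anac017-1 and 8.15 to 8.98 in rao2, against 7.93 to 8.40 in wild type. The defining root hair expansin genes EXPA7 and EXPA18 were among them, and 2 of the 5 markers were not above background in each antimycin A group. The single measured guard cell marker of 5 listed, the transcription factor FMA, read 6.35 to 6.75 with antimycin A in anac017-2, 5.36 to 5.99 in anac017-1 and 6.07 to 6.36 in rao2, against 5.65 to 5.93 in wild type. In water FMA read 6.30 to 6.72 in anac017-2, 6.35 to 6.89 in anac017-1 and 6.55 to 6.76 in rao2, against 6.63 to 6.92 in wild type. For FMA and for the summed root markers, every antimycin A array lay below every water array in anac017-1, rao2 and wild type, while in anac017-2 the arrays overlapped. The shoot meristem marker CLV3, the only measured one of 5, was not above background in any group. The part of these cell types in the member levels was not tested.

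Of the other lists, the plant U-box and ATL ubiquitin ligases held the single listed member, AT5G37490. Among 7 measured ligases limma called 1 higher with antimycin A in anac017-2 (PUB24, 1.65 ± 0.44, adjusted p = 0.0107) and 6 in wild type, with medians of 0.15 and 2.10. In anac017-1 and in rao2 it called 6 higher. Of 12 calcium sensor and touch genes 1 was called higher in anac017-2 (AT2G46600, 0.83 ± 0.17, adjusted p = 0.00147 in limma), against 9 higher and 1 lower in wild type. The counts were 10 higher and 1 lower in anac017-1, and 9 higher and 1 lower in rao2. Of 7 ethylene response factors AT1G22810 rose (1.86 ± 0.49, adjusted p = 0.0104 in limma) and AT5G07580 fell (-0.95 ± 0.18, adjusted p = 0.000982) in anac017-2, against 2 higher and 1 lower in wild type. For these factors 4 were called higher in anac017-1 and 2 in rao2, with 0 lower in either. Of 10 heat shock genes, 6 were called lower in anac017-2, led by AT1G53540 (-4.25 ± 0.44, adjusted p = 8.99e-07 in limma), AT2G29500 (-4.51 ± 0.50, adjusted p = 1.71e-06) and AT1G54050 (-2.75 ± 0.32, adjusted p = 4.89e-06), against 4 higher and 1 lower in wild type. The fall was not particular to anac017-2: in anac017-1 0 were called higher and 5 lower, and in rao2 1 higher and 2 lower. Of 9 genes of the unfolded protein response 1 was called higher and 5 lower in anac017-2, against 3 higher and 4 lower in wild type. In anac017-1 it was 3 higher and 6 lower, and in rao2 3 higher and 4 lower. Of 7 efflux and cytochrome P450 genes AT1G61890 was called lower in anac017-2 (-0.64 ± 0.21, adjusted p = 0.0409 in limma), against 4 higher in wild type. In anac017-1 and in rao2, 3 of these genes were called higher. The jasmonate and abscisic acid lists had 2 measured genes each, with AT1G52000 (1.86 ± 0.47, adjusted p = 0.00831) and COR47 (1.38 ± 0.33, adjusted p = 0.00497) called higher in anac017-2 and 0 called by limma in wild type. The carbon starvation list had 2, with 0 called in anac017-2 by limma and 1 higher in wild type. Over all probe sets 6.9% were called higher and 8.39% lower with antimycin A in anac017-2, against 17.2% and 26.7% in wild type. Of 22746 probe sets 4019 were called higher and 6293 lower in anac017-1, and 3733 and 5872 in rao2. Whether a response differs between anac017-2 and wild type was not tested for the lists.

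Members differed from one another in how the genotypes ranked. Across the 73 members, Pearson's correlation of the antimycin A changes was 0.81 between rao2 and anac017-1 and 0.60 between rao2 and wild type. These describe points from the same arrays and share the choice of members. With anac017-2 the wild type change had a correlation of -0.05. In anac017-1 the level with antimycin A was at least 1 above wild type for 16 members (668 of all 22746 probe sets). It was at least 1 below for 10 (476 of all probe sets). In rao2 it was so for 11 members above (467 of all probe sets) and 7 below (367). The rule used these arrays and chose members with large changes on them, so the counts are a description.

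Members lay on all 5 nuclear chromosomes. Of the 37 with a gene located in the TAIR10.1 annotation, 10 were on chromosome 1, 6 on chromosome 2, 5 on chromosome 3, 7 on chromosome 4 and 9 on chromosome 5. The closest pair among these 37 was AT4G19370 and AT4G19460, with 8 protein-coding genes between them, and the other members were not located.

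The edges of the rule were close. Just inside the limit of 3 on the wild type antimycin A change were AT2G39400 (3.00) and AT4G39830 (3.02), and just outside it AT5G64780 (2.95) and AT1G07135 (2.92). For the wild type hydrogen peroxide change, AT4G27654 (0.46) and AT1G79710 (0.43) were nearest inside the upper limit and AT4G03450 (0.50) and OASA2 (0.53) outside it. At the lower limit AT4G31020 (-0.37) and EXLA3 (-0.37) were inside and AT5G39580 (-0.53) and AT5G54720 (-0.57) outside. For the share kept in rao2, AT5G59680 (0.543) and AT5G57500 (0.645) were nearest inside. For the share kept in anac017-1, AT5G37490 (0.530) and AT1G43000 (0.547) were inside and AT1G61610 (0.443) was outside.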

How the data were processed

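Total RNA of 36 leaf samples was hybridised to one-colour Affymetrix ATH1 arrays. The deposited intensities were already summarised and normalized by the authors on a linear scale, and RMA and GCRMA are named in the submitters' processing notes without versions, so which of them made the values, and how far its background step moved low values, is not known. Log2 was taken of the deposited values, and of 22810 probe sets 64 controls were left out. Group means of all 36 arrays were fitted with limma 3.58.1 (lmFit and eBayes) in R 4.3.3 with 24 residual and 1.28 prior degrees of freedom, and p-values were adjusted by Benjamini-Hochberg over 22746 probe sets. A call is an adjusted p under 0.05, and ± beside a change is the standard error of the fit. The number of arrays limits the precision.

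A background limit, the lower quartile of each array, was chosen after the results were seen. Changes written as at least were computed with lower values raised to it. Gene names came from the array's gene table, which lists 1 gene for 13513 probe sets, several for 503 and none for 8730. No sequences are given because no sequence table was used here.

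The members and the gene lists were chosen with earlier results of these data known. Array values are given for 23 named members: among the named, the 10 with the largest wild type antimycin A change, the 4 largest and 4 smallest shares kept in anac017-2, the 3 largest hydrogen peroxide changes in a mutant, the 2 nearest inside each limit, and list members. They are also given for AT5G38710, nad5 and 5 unnamed probe sets, chosen after their values were seen. Others are named by role, and of each list up to 3 called genes with the lowest p are named, one probe set per locus. Alternatives were array weights, an intensity trend, a fit on the arrays of 1 genotype, a filter on low values, log2(value + 16), raised low values, quantile normalization, a replicate block, a stricter threshold, other limits of the rule and leaving out each array. The fit was also run on data simulated with normal noise and no floor at low values. That run cannot tell how calls behave near background, and nothing is read from it.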

Additional observations from a re-analysis of the deposited data

Results flagged for a closer look

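In anac017-2, all 3 antimycin A arrays lay below all 3 water arrays for 3 members, while in wild type all antimycin A arrays lay above the water arrays, which the choice of members required. This difference in direction between anac017-2 and wild type was not tested. Probe set 253181_at changed by -3.92 in anac017-2, where it read 4.14, 1.34 and 3.81 with antimycin A and 6.56, 7.47 and 7.02 with water, and in wild type it read 9.21, 9.94 and 9.30 with antimycin A and 4.83, 5.64 and 5.32 with water. AT1G79710, of a folate and biopterin transporter family, changed by -0.76 in anac017-2, which was not called, but with array weights it was (-0.64, adjusted p = 0.0494 in limma). Probe set 247026_at changed by -0.44 in anac017-2, but it was not above background on any of the 3 antimycin A arrays or on 2 of the 3 water arrays there, so that this change rests on water replicate 3 at 3.23. Over all probe sets 19.2% had every anac017-2 antimycin A array below every water array.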

How the results depend on the processing

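No alternative turned the direction of a called change, but of the 7 calls for antimycin A in anac017-2 only that of 255654_at held in every alternative. The median antimycin A change there, 0.26, was 0.0823 on log2(value + 16). The median hydrogen peroxide change in anac017-2, 0.06, was -0.0040 without anac017-2 hydrogen peroxide replicate 2, and that in anac017-1, near 0, ran from -0.0194 to 0.0281. The 73 members became 227 with a limit of 2 on the wild type antimycin A change, 31 with a limit of 4, 44 with a hydrogen peroxide window of 0.25 and 151 with a window of 1. On log2(value + 16), which shrinks the change of low probe sets, 37 met the rule, 19 of them among the 73, so the membership of low probe sets depends on the scale. With quantile normalization 72 met it (68 shared), and without single arrays 70 to 102 (61 to 73 shared). The fewest shared, 61, were found without wild type hydrogen peroxide replicate 3. The 102 were found without wild type hydrogen peroxide replicate 1 (69 shared). The 7 members called for antimycin A in anac017-2 became 22 with array weights, with which 28.3% of all probe sets were called. They became 3 at an adjusted p under 0.01 (7.65% of all probe sets). Without single arrays the count was 2 to 12, with 9.81% to 16.8% of all probe sets called. The calls for hydrogen peroxide in anac017-2 were 0 to 3 without single arrays (4.19% to 9.94% of all probe sets). Those for hydrogen peroxide in anac017-1 became 1 with array weights (8.42% of all probe sets) and stayed at 0 without any single array. Those for antimycin A against hydrogen peroxide in anac017-2 became 4 with array weights (5.23% of all probe sets) and 3 with the filter on low values (10.3% of probe sets kept). Without single arrays they were 1 to 8 (3.07% to 7.34% of all probe sets). Those for hydrogen peroxide in rao2 became 0 on its own arrays alone (3.62% of all probe sets) and 1 on log2(value + 16) (11.6%). They became 0 at an adjusted p under 0.01 (5.5%) and were 0 to 4 without single arrays (6.05% to 12.7%). The median share kept in anac017-2 was 0.0343 on log2(value + 16) and 0.0422 to 0.0693 without single arrays. For anac017-1 it was 1.01 to 1.10 and for rao2 0.971 to 1.05 without single arrays. The cause of these shifts was not tested.

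Whether replicate numbers pair the samples is not known. In no comparison did all same-numbered arrays correlate above 0.1 in their deviations, which cannot decide it. For hydrogen peroxide in anac017-2 every number correlated best with itself, at 0.272, 0.0799 and 0.084. With the replicate block the counts in anac017-2 were 7 for antimycin A (16.0% of all probe sets) and 0 for hydrogen peroxide (9.5%). They were 2 for antimycin A against hydrogen peroxide in anac017-2 (5.47%), 2 for hydrogen peroxide in rao2 (12.1%) and 0 in anac017-1 (1.78%). Changes between values near background are not measurable on these arrays, which concerns 20 members in anac017-2.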
